A study of Mus musculus with 12 samples.

Results

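Activator protein 1 (AP-1) is a dimer of basic leucine zipper proteins, and the genes of 10 such subunits were examined in sorted splenic CD8+ T cells of mice with a linker histone H1 mutant genotype. They were Fos, Fosb, Fosl1 and Fosl2 of the Fos family, Jun, Junb and Jund of the Jun family, Batf and Batf3 of the Batf family, and Atf3. They were chosen by gene symbol, and all 10 were found among the 24421 genes of the authors' deposited table. Reads were present for 9 of them, and 6 had an adjusted p in that table.

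The tested mice had the genotype cTKO and the others were WT, all on the C57BL/6 background. The 12 samples of the series fall into 6 groups of 2, from CD8+ T cells, CD4+ T cells and B cells of the spleen in each genotype, and polyadenylated RNA from 500000 sorted cells a sample was sequenced with paired ends. The values analysed here are the authors' comparison of 2 cTKO with 2 WT samples of CD8+ T cells, with 1 female and 1 male per genotype. The sources used here give neither the age of the mice nor the Cre driver, and no treatment is named for either genotype. No values of the other cell types were used.

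Fos proteins dimerise with Jun proteins and bind a short palindromic DNA site, whereas Jun proteins also pair with each other. Fos, Fosb, Jun, Junb and Atf3 are immediate early genes, whose mRNA appears within minutes of a signal such as T cell receptor engagement and is soon degraded. In T cells, Fos-Jun dimers cooperate with NFAT at cytokine genes. Batf proteins lack the transactivation domain of Fos, pair with Jun proteins and bind composite sites together with IRF4 or IRF8. Dissociating and sorting a tissue is itself known to induce immediate early genes.

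The table gives 1 mean per gene over 4 libraries, and the reads of each library were worked back from it. The 2 libraries of a genotype differed in size, with size factors of 1.21 and 0.805 in cTKO and 1.21 and 0.866 in WT, and they are named here by their size. Y-linked reads occurred in the smaller library of each genotype (Kdm5d, 488 reads in cTKO and 479 in WT) and in neither larger one (0 reads in each), so sex and library size cannot be told apart. The linker histone genes Hist1h1c, Hist1h1d and Hist1h1e had 0 reads in both cTKO libraries, against 41 and 56, 5 and 11, and 64 and 112 reads in the larger and smaller WT libraries. No header states which genotype is on top of the fold change, and cTKO over WT was taken, since all 3 genes have negative values. The larger cTKO library stood apart, since 1165 genes had their only read there, against 156 genes in the smaller cTKO library and 102 and 97 in the WT libraries. The means of the CD8 T cell markers were high (12041 normalized reads for Cd3e, 20303 for Cd8a and 31813 for Cd8b1) and 0 of 10 differed in the authors' deposited table. Cd4 had 1 and 0 reads in the cTKO libraries and 1 and 4 in the WT libraries.

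Of the 6 tested subunits, Fos, Jun and Junb were lower in cTKO cells by the authors' deposited test, and Fosl2 was higher. Over all 12972 tested genes, 3.61% were called lower at an adjusted p under 0.05 and 9.77% were called higher. Jund and Batf did not pass. The median log2 fold change of the 6 was −0.94, against 0.039 over all tested genes. Of the 6, 5 lay below 0 (83.3%), against 48.1% of all tested genes. By level, the median over tested genes was 0.097 at means of 100 to 500 normalized reads. It was −0.14 at 500 to 2000, where Batf lies, and −0.24 at 2000 to 5000, where Junb and Jund lie. In normalized reads, Fos, Junb and Jund were lower in each cTKO library than in either WT library, an arrangement found in 25.4% of the 11059 tested genes with recovered reads. For Fosl2 both cTKO libraries lay above, as for 33.8% of those genes. Only 28 genes with recovered reads had a mean above 2000 normalized reads, where Junb and Jund lie. In bulk RNA, fewer cells that express a gene and less RNA per cell cannot be told apart.

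**Figure D1:**
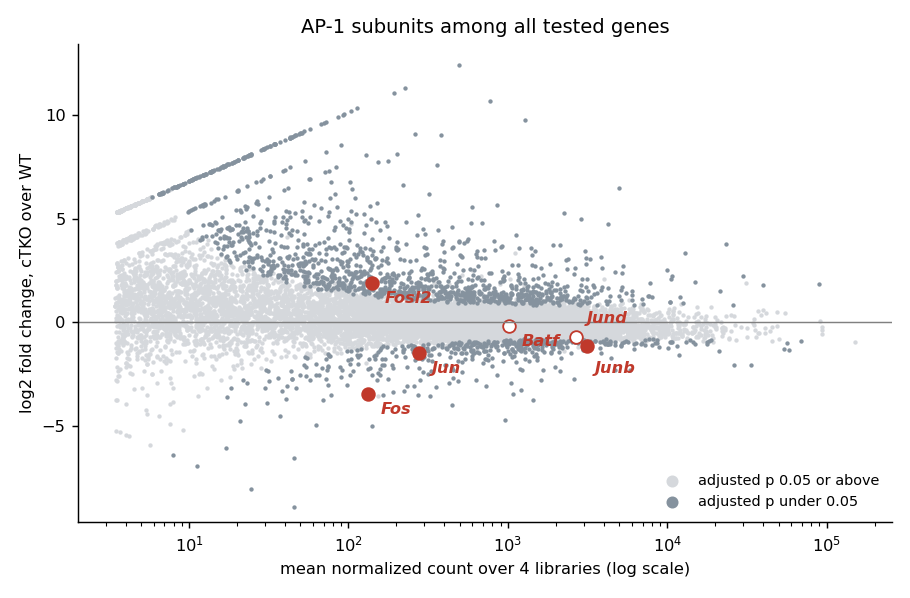
Deposited log2 fold change of each tested gene (y axis, cTKO over WT) against its mean normalized count over 4 libraries (x axis, log scale). Points are the 12972 tested genes, and red circles are the 6 tested AP-1 subunits, filled where the adjusted p was under 0.05. Fos lies at −3.48 and Fosl2 at 1.90, at means of 132 and 140.5 normalized reads.

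Fos encodes c-Fos, the founding Fos protein, which cannot bind DNA without a Jun partner. It had 20 and 22 reads in the larger and smaller cTKO libraries, against 110 and 341 reads in the larger and smaller WT libraries. Divided by the size factors, this was 16.6 and 27.3 normalized reads in cTKO cells, against 90.6 and 394 in WT cells. Both cTKO libraries were low and the groups did not overlap, but the WT libraries differed 4.35-fold between themselves. The means were 21.9 ± 7.61 normalized reads in cTKO cells and 242 ± 214 in WT cells (SD, n = 2 each). In the authors' deposited table the log2 fold change was −3.48 with a standard error of 0.65 (95% interval −4.75 to −2.20), an 11.1-fold reduction with a DESeq2 adjusted p of 3.65e-06. A limma fit on the recovered reads, which called 1.97% of 11059 genes lower and 8.22% higher, gave a log2 fold change of −3.12 and an adjusted p of 0.0238. Among tested genes with a mean of 100 to 500 normalized reads, where Fos, Fosl2 and Jun lie, the authors' test called 3.81% lower and 11.6% higher. Without the smaller WT library, limma gave −2.06 (adjusted p = 0.136), and without the larger WT library it gave −4.18 (adjusted p = 0.00519). Without the larger cTKO library it gave −2.77 (adjusted p = 0.406), and without the smaller cTKO library −3.47 (adjusted p = 0.196).

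Fosl2 encodes Fra-2, a Fos family member that lacks the strong transactivation domain of c-Fos and is induced more slowly. It had 374 and 107 reads in the larger and smaller cTKO libraries, against 76 and 49 reads in the larger and smaller WT libraries, or 310 and 133 normalized reads in cTKO cells and 62.6 and 56.6 in WT cells. The WT libraries were close together, while the larger cTKO library held more than the smaller one. The means were 221 ± 125 normalized reads in cTKO cells and 59.6 ± 4.24 in WT cells (SD, n = 2 each). The deposited log2 fold change was 1.90 with a standard error of 0.52 (95% interval 0.885 to 2.91), a 3.72-fold increase with a DESeq2 adjusted p of 0.00366 in the authors' deposited table. By limma on recovered reads it was 1.76 (adjusted p = 0.0493), and 1.15 without the larger cTKO library (adjusted p = 0.329). The call was also lost in limma without the smaller cTKO library (2.37, adjusted p = 0.109), the larger WT library (1.83, adjusted p = 0.178) or the smaller WT library (1.69, adjusted p = 0.206).

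The other Fos genes gave almost no reads. Fosb, whose protein is close to c-Fos, had 3 and 0 reads in the larger and smaller cTKO libraries, against 3 and 2 in the larger and smaller WT libraries. Fosl1, which encodes Fra-1, had 0 reads in each of the 4 libraries, which allows up to 3 reads per library by counting error alone. Neither gene had an adjusted p in the authors' deposited table.

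**Figure D2:**
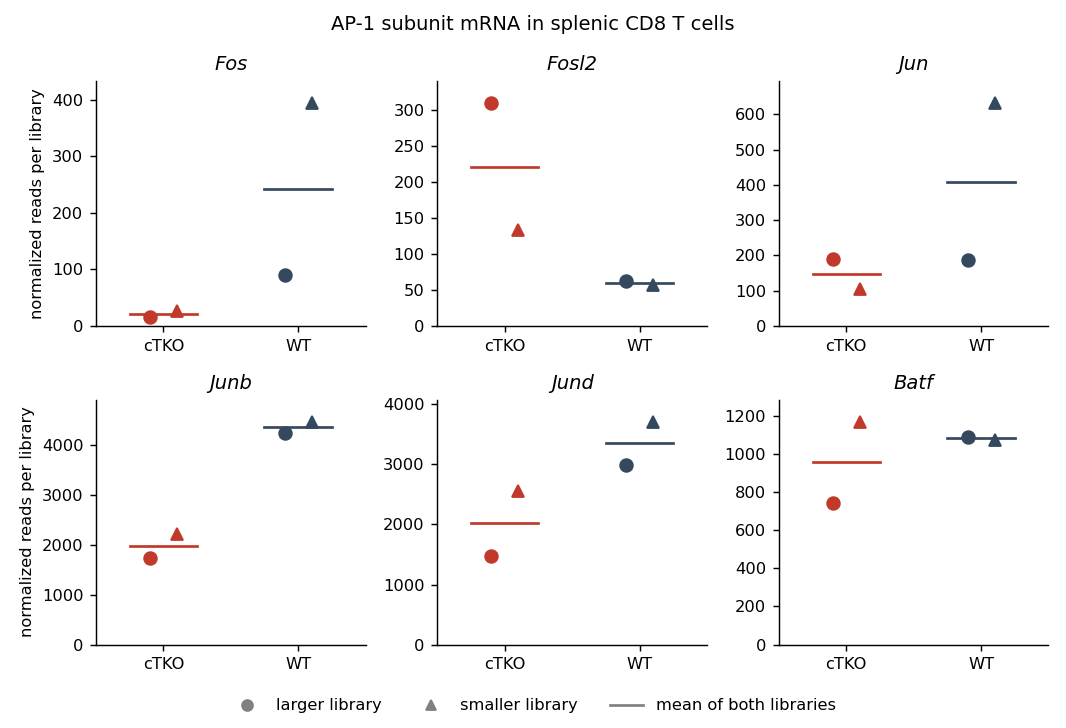
Normalized reads per library (y axis, linear from 0) of the 6 tested AP-1 subunits in cTKO (red) and WT (blue) CD8 T cells. Circles are the larger and triangles the smaller library of each genotype, and bars are means of 2 libraries. The smaller WT library holds 394 normalized reads of Fos and 632 of Jun, above each of the other 3 libraries, and the larger cTKO library holds 310 of Fosl2.

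Fos and Fosl2 changed places in the order of levels per transcript length. In normalized reads per kb of transcript, Fos was at 7.86 and 13.0 in the larger and smaller cTKO libraries, against 43.0 and 187 in the larger and smaller WT libraries. Fosl2 was at 47.4 and 20.3 in the cTKO libraries, against 9.57 and 8.66 in the WT libraries. The ratio of Fosl2 to Fos per kb was therefore 6.03 and 1.57 in cTKO cells, against 0.223 and 0.0463 in WT cells. Fosl2 was the more abundant of the pair in both cTKO libraries and Fos in both WT libraries. An exact two-sided permutation test of the log ratio gave p = 0.333, the smallest value that 2 libraries against 2 allow.

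Junb encodes a Jun protein that activates transcription less strongly than c-Jun and restrains it in several settings. It had 2085 and 1774 reads in the larger and smaller cTKO libraries, against 5134 and 3858 in the larger and smaller WT libraries. Normalized, these were 1727 and 2204 reads in cTKO cells and 4228 and 4455 in WT cells, and the groups lay well apart. The means were 1965 ± 337 in cTKO cells and 4341 ± 161 in WT cells (SD, n = 2 each). The deposited log2 fold change was −1.14 with a standard error of 0.30 (95% interval −1.73 to −0.555), a 2.21-fold reduction with a DESeq2 adjusted p of 0.00236 in the authors' deposited table. Among the 1402 tested genes with a mean of 2000 to 5000 normalized reads, 4.42% were called lower and the median log2 fold change was −0.24. The limma fit gave −1.15 (adjusted p = 0.0263). Leaving out 1 library at a time kept the log2 fold change between −1.33 and −0.98, with adjusted p between 0.111 and 0.277. Junb overlaps Prdx2 on the opposite strand, whose own deposited log2 fold change was −0.43 (adjusted p = 0.430), and the sources used here do not say whether reads were counted by strand.

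Jun encodes c-Jun, the most active partner of c-Fos. It had 228 and 84 reads in the larger and smaller cTKO libraries, against 226 and 547 reads in the larger and smaller WT libraries. The normalized reads were 189 and 104 in cTKO cells, against 186 and 632 in WT cells. The larger libraries of both genotypes were level, so the groups overlapped, and the smaller WT library alone was high. The means were 147 ± 59.7 normalized reads in cTKO cells and 409 ± 315 in WT cells (SD, n = 2 each). The deposited log2 fold change was −1.47 with a standard error of 0.53 (95% interval −2.52 to −0.428) and a DESeq2 adjusted p of 0.0445 in the authors' deposited table. By limma it was −1.29 (adjusted p = 0.197), and −0.41 without the smaller WT library (adjusted p = 0.791). A further limma fit took the larger and smaller libraries as a block and called 4.14% of genes lower. Jun ran in opposite directions between the libraries, with ratios of smaller to larger of 0.553 in cTKO cells and 3.39 in WT cells. The limma standard errors draw on other genes too. In the block fit they were alike for Jun (0.386), Junb (0.393) and Batf (0.375). With the block, the log2 fold change of Jun was −1.29 with an adjusted p of 0.00743. Without the larger cTKO library it was −1.71 (adjusted p = 0.476), without the smaller cTKO library −0.86 (adjusted p = 0.582), and without the larger WT library −2.17 (adjusted p = 0.0698). Adjusting the deposited p-values over all 18153 genes with reads gave an adjusted p of 0.0623. The annotation places an antisense transcript, Junos, over Jun.

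Jund encodes the Jun protein that most resting cells express steadily. It had 1785 and 2062 reads in the larger and smaller cTKO libraries, against 3636 and 3214 reads in the larger and smaller WT libraries. In normalized reads these were 1478 and 2562 in cTKO cells, against 2994 and 3711 in WT cells. Each cTKO library was below either WT library, with means of 2020 ± 766 in cTKO cells and 3353 ± 507 in WT cells (SD, n = 2 each). The deposited log2 fold change of −0.73 had a standard error of 0.35 (95% interval −1.41 to −0.0524), and its DESeq2 adjusted p of 0.151 in the authors' deposited table missed the threshold. An antisense gene, Gm11175, overlaps Jund.

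**Figure D3:**
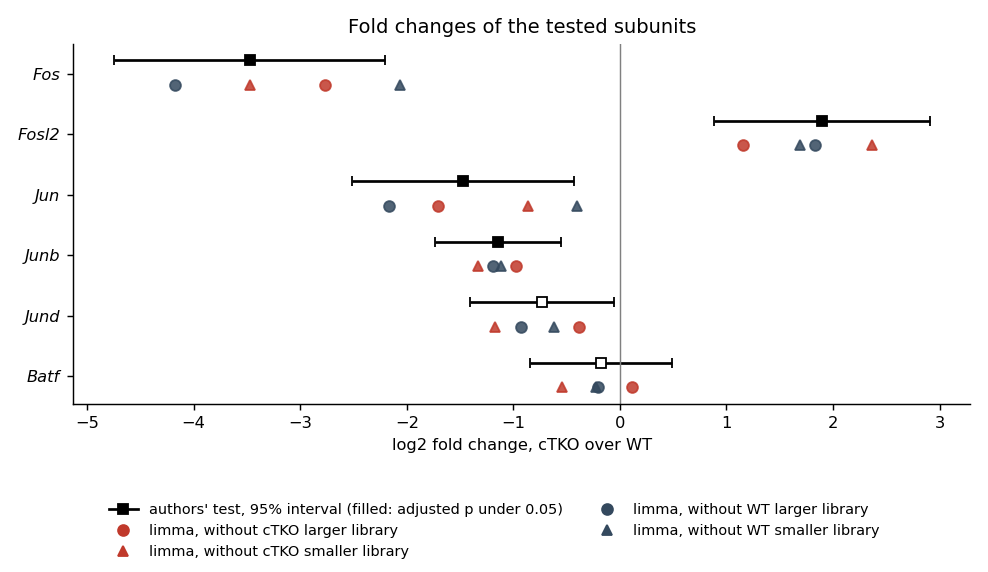
Log2 fold changes (x axis, cTKO over WT) of the 6 tested subunits (rows). Black squares are the authors' values with 95% intervals, filled where the adjusted p was under 0.05; coloured points are limma fits that leave out 1 library each. Jun ranges from −2.17 to −0.41 and Junb from −1.33 to −0.98, while Batf takes both signs.

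Batf encodes a Jun partner that is needed for effector differentiation of CD8 T cells. It had 898 and 941 reads in the larger and smaller cTKO libraries, against 1322 and 931 reads in the larger and smaller WT libraries. Normalized, these were 744 and 1169 in cTKO cells and 1089 and 1075 in WT cells, so the WT libraries lay between the cTKO ones. The means were 956 ± 301 normalized reads in cTKO cells and 1082 ± 9.59 in WT cells (SD, n = 2 each). The deposited log2 fold change was −0.18 with a standard error of 0.34, and its 95% interval ran from −0.845 to 0.487 (DESeq2 adjusted p = 0.785 in the authors' deposited table). Without the larger cTKO library the limma value was 0.11 (adjusted p = 0.657).

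Batf3, a close relative of Batf with a known role in cross-presenting dendritic cells, had 1 and 1 reads in the cTKO libraries, against 4 and 1 in the larger and smaller WT libraries. Atf3, a stress-induced relative that can repress its targets, had 1 and 3 reads in the larger and smaller cTKO libraries, against 3 and 4 in the larger and smaller WT libraries. Both fell under the lowest mean with an adjusted p in the authors' deposited table, 3.45 normalized reads, and no difference was detectable at this depth.

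The total and the make-up of AP-1 mRNA were compared per transcript length. Summed over the subunits, the level was 2736 and 4048 normalized reads per kb in the larger and smaller cTKO libraries, against 5389 and 6211 in the larger and smaller WT libraries. Junb, Jund and Batf made up nearly all of it in every library. Junb held 34.9 and 30.1% of the sum in cTKO cells, against 43.4 and 39.7% in WT cells. Jund held 32.4 and 37.9% in cTKO cells, against 33.3 and 35.8% in WT cells. Batf held 28.5 and 30.2% in cTKO cells, against 21.2 and 18.1% in WT cells. The 3 Jun genes together held 69.4 and 68.9% in cTKO cells and 77.8 and 78.7% in WT cells. The shares of Junb and of the Jun genes were thus lower and that of Batf higher in both cTKO libraries, while those of Jund overlapped. The exact two-sided permutation p of such a share cannot fall below 0.333 with 2 libraries per genotype. In level per kb, Junb led in both WT libraries and in the larger cTKO library (955, ahead of Jund at 886). In the smaller cTKO library Jund led at 1536, ahead of Batf at 1224 and Junb at 1218. The Fos genes held 2.04 and 0.823% of the sum in the cTKO libraries and 0.987 and 3.16% in the WT libraries, so these shares overlapped.

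**Figure D4:**
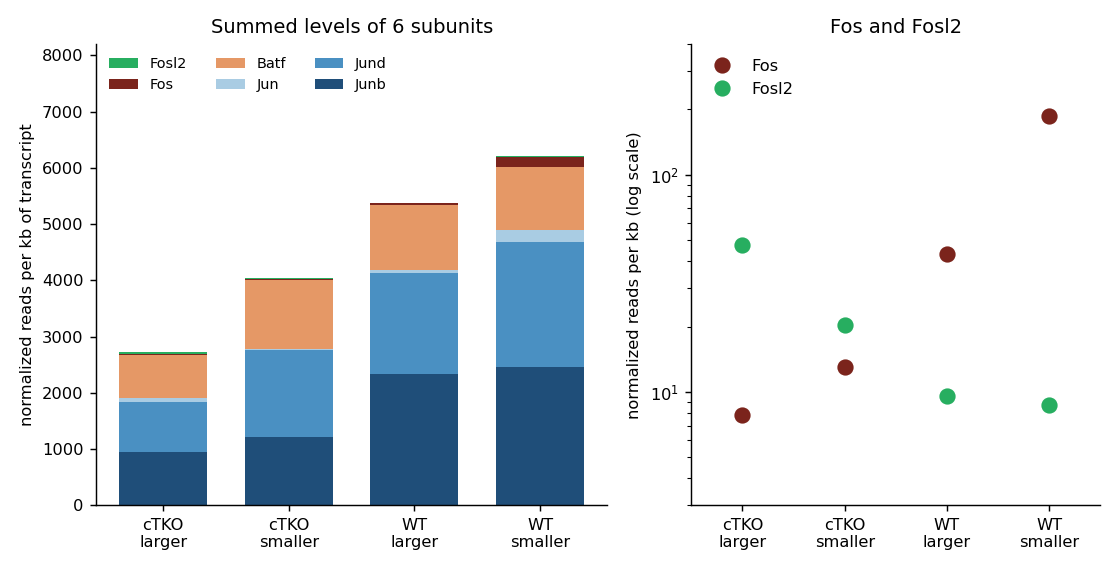
Left, normalized reads per kb of transcript (y axis, linear from 0) of the 6 tested subunits, stacked per library; right, Fos and Fosl2 alone on a log scale. Bars reach about 2736 and 4048 in the cTKO libraries and 5389 and 6211 in the WT libraries, and the 2 colours on the right change order between the genotypes.

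The smaller WT library was high in Fos and Jun beyond the usual spread of the WT libraries. The ratio of the smaller to the larger WT library was 4.35 for Fos and 3.39 for Jun in normalized reads. Among 8195 tested genes with recovered reads and a mean of at least 50, 17 reached the ratio of Fos (0.207%). That of Jun was reached by 26 (0.317%). Reads were recovered below a mean of 2000, or below 10000 for listed genes, so most genes of higher level are missing. The same ratio was 7.11 for Hspa1a and 4.93 for Hspa1b, which encode inducible heat shock proteins, and 3.45 for Ier3, an immediate early gene. As lists, heat shock genes had a median ratio of 0.952, with 4 of 9 genes above 1, and other immediate early genes one of 1.11, with 13 of 23 above 1. Erythroid and platelet markers had a median ratio of 5.87, with 3 of 4 above 1, and B cell markers one of 1.40, with 7 of 9 above 1. The erythroid ratios rest on few reads, with 4 and 28 for Hba-a1 and 3 and 24 for Hba-a2 in the larger and smaller WT libraries. Car2, with 215 and 142 reads there, was at 0.926. The ratio was 1.14 for Egr1, 0.879 for Egr2 and 0.834 for Nr4a1, which are immediate early genes too, and 1.05 for Junb. The part of this library difference in the fold changes of Fos and Jun beyond the values without the library given above was not tested.

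The 5 genes whose normalized reads over the 4 libraries lay nearest to those of Fos, by Euclidean distance on the centred log2 scale among 8194 genes, were Hspa1b (distance 1.20), Cxxc5 (1.23), Sox4 (1.31), Trpm1 (1.35) and Tmem191c (1.40). Hspa1b had 76 and 27 reads in the larger and smaller cTKO libraries, against 170 and 597 in the larger and smaller WT libraries. Of the 5, it was the gene that shared the high value in the smaller WT library. Sox4, which encodes a transcription factor, had 16 and 24 reads in the larger and smaller cTKO libraries, against 188 and 167 in the larger and smaller WT libraries. The deposited log2 fold changes of the 5 ran from −3.37 for Trpm1 to −2.52 for Tmem191c. Likeness over 4 libraries of 2 genotypes largely restates the difference between the genotypes.

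Positions and promoter sequences give the setting of these genes, on GRCm38.p6 with RefSeq coordinates. Fos lies on chromosome 12 at 85473890 to 85477274 on the plus strand, and Batf lies on the same chromosome at 85686720 to 85709087. Jdp2, another basic leucine zipper gene, lies between them, and 209445 bases separate Fos from Batf. Of these 3 neighbours, Fos was lower in cTKO cells, while Jdp2 (log2 fold change −0.05, adjusted p = 0.975) and Batf did not pass the test in the authors' deposited table. Fosl2 lies on chromosome 5 at 32136472 to 32157840 and Jun on chromosome 4 at 95049036 to 95052222. Junb at 84976909 to 84978748 and Jund at 70697739 to 70700616 share chromosome 8. Batf3 and Atf3 are neighbours on chromosome 1, Fosb lies on chromosome 7 and Fosl1 on chromosome 19. Jun, Junb and Jund are genes of a single exon.

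The 250 bases before the RefSeq start of the 4 called subunits are shown because these genes moved in opposite directions; capitals mark the short motifs found.
Fos, chr12:85473640-85473889, plus strand: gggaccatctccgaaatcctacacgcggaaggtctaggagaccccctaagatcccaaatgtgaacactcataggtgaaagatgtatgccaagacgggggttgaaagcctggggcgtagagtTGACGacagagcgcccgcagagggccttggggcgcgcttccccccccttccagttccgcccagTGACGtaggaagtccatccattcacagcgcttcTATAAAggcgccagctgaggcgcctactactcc
Fosl2, chr5:32136222-32136471, plus strand: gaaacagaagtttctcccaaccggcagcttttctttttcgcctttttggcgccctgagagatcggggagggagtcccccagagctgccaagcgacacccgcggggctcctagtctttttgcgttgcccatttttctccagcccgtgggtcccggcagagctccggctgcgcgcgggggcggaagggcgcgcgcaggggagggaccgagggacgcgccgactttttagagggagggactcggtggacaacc
Jun, chr4:95052223-95052472, minus strand: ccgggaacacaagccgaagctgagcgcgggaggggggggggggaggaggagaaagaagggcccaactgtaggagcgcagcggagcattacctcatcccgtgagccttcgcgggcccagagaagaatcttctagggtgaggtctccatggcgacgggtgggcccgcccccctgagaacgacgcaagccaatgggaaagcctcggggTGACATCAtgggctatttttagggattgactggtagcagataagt
Junb, chr8:84978749-84978998, minus strand: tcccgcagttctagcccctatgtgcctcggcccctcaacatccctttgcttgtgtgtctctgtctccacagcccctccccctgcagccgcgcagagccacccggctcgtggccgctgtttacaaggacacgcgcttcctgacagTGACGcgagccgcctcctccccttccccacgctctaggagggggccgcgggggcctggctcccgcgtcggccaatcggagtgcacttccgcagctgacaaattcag

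Motifs were searched on both strands, except TATAAA on the gene's own strand, in the same window of 32851 promoters. TGACTCA, the classical AP-1 site, was in none of the 9 subunit promoters with an entry and in 4.46% of all promoters. TGACGTCA, the full cyclic AMP response element, was likewise in none and in 1.55% of all. The shorter TGACG, which that element contains, occurred in the promoters of Fos (2 matches), Fosb, Junb, Batf and Atf3, and in 17.8% of all. TGACATCA, a variant of the AP-1 site, occurred in that of Jun and in 2.93% of all, and TATAAA in that of Fos and in 7.59% of all. The CArG box was found in none of the 9 and in 1.47% of all. The Fosl2 window held none of these motifs, and a missing match says only that these letters are absent from this window.

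The genes around AP-1 were described from 7 lists, each set against the 9.77% of tested genes called higher and the 3.61% called lower. Of 27 tested relatives with a basic leucine zipper outside the 10 subunits, 3 were higher and 1 was lower in the authors' deposited table, with a median log2 fold change of 0.30. Atf6, an endoplasmic reticulum stress sensor, had 733 and 291 reads in the larger and smaller cTKO libraries, against 85 and 85 in the WT libraries (log2 fold change 2.53, DESeq2 adjusted p = 1.18e-07). Nfil3, a regulator of lymphocyte fate, was higher at 1.13, and Creb3 was lower at −0.98. Hlf, a relative known from blood stem cells, had 165 and 72 reads in the larger and smaller cTKO libraries, against 2 and 0 in the larger and smaller WT libraries.

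Among 8 tested IRF and NFAT genes, some of whose proteins share composite sites with AP-1, 2 were higher and 0 lower. The median was 0.38. Nfatc2 had 3720 and 818 reads in the larger and smaller cTKO libraries, against 433 and 527 in the larger and smaller WT libraries. Its deposited log2 fold change was 2.09 (DESeq2 adjusted p = 1.69e-04). Nfat5, the osmotic stress member, was higher at 1.40. Of 27 upstream kinases and regulators, 0 were higher and 1 was lower in the authors' deposited table, with a median of 0.17. This was Mapk11, a p38 kinase, with 46 and 40 reads in the larger and smaller cTKO libraries, against 698 and 370 in the larger and smaller WT libraries (deposited log2 fold change −3.52, DESeq2 adjusted p = 3.40e-15).

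MAP kinase phosphatases and feedback genes went both ways, with 3 higher and 2 lower of 15 and a median of 0.19. Dusp1, an immediate early phosphatase of MAP kinases, had 172 and 139 reads in the larger and smaller cTKO libraries, against 734 and 631 in the larger and smaller WT libraries (deposited log2 fold change −2.08, DESeq2 adjusted p = 2.66e-07). Spry1, an inhibitor of receptor signalling to ERK, was lower at −3.91. Dusp5, a phosphatase of nuclear ERK, was higher at 1.73, as were Dusp10 at 0.94 and Spry2 at 2.95.

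Of 24 other immediate early genes, 3 were higher and 5 lower in the authors' deposited table, and the median log2 fold change was −0.18. Egr2, a zinc finger factor induced by T cell receptor signals, had 90 and 99 reads in the larger and smaller cTKO libraries, against 972 and 609 in the larger and smaller WT libraries (deposited log2 fold change −2.94, DESeq2 adjusted p = 2.12e-12). Egr1 was lower at −2.32 and Nr4a1, a nuclear receptor gene that T cell receptor signals also switch on, at −2.08. Ier3 (2.95), Rgs1 (1.60) and Rhob (2.69) were higher. Egr1, Egr2 and Nr4a1 of this list were thus lower in cTKO cells, as were Fos and Dusp1 outside it. Ppp1r15a (−1.84) and Ier2 (−1.14) of this list were lower too. Calls within the list ran in both directions, and the rest of its 24 genes were not called.

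Of 12 heat shock genes, 0 were higher and 4 lower, with a median of −0.70. Hspa1b was lower at −3.09, Dnajb1 at −1.05 and Hspa8 at −1.02 in the authors' deposited table. Their part in the lower Fos and Jun was not tested.

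Of 19 tested genes with a textbook AP-1 site or dependence, 8 were higher and 2 lower in the authors' deposited table, with a median log2 fold change of 1.16. Gzmb, a killing protease, had 3433 and 1831 reads in the larger and smaller cTKO libraries, against 468 and 139 in the larger and smaller WT libraries (deposited log2 fold change 3.22, DESeq2 adjusted p = 1.72e-13). Il12rb2, an interleukin-12 receptor chain, was higher at 3.93 and Fasl, a death ligand, at 2.60. Plaur, the urokinase receptor, was lower at −3.32 and Cd69, an early activation marker, at −0.97. Several genes of this list are also effector genes of natural killer and memory T cells, and calls over all tested genes were mostly higher as well.

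**Figure D5:**
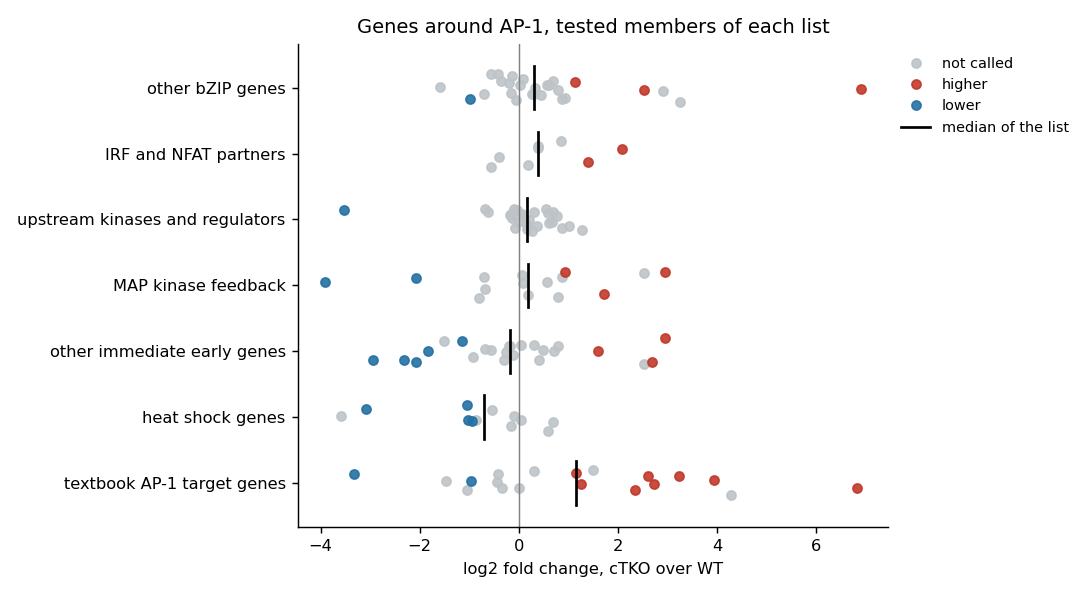
Deposited log2 fold changes (x axis, cTKO over WT) of the tested genes of 7 lists around AP-1 (rows); red points were called higher, blue lower and grey not called, and black bars are list medians. The median is −0.70 for heat shock genes and 1.16 for textbook AP-1 target genes.

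Genes listed as markers of other cell types also differed between the genotypes. Over all tested genes, 9.77% were called higher and 3.61% lower. Of 9 tested natural killer markers, 5 were higher and 1 lower in the authors' deposited table, and their summed level was 6990 to 8505 normalized reads in cTKO cells, against 2488 to 2680 in WT cells. Klrb1c, Tyrobp, Klra8, Klra3 and Gzma were higher, Fcer1g was lower, and Ncr1, Klra4 and Klrd1 were not called. Klrb1c had 1606 and 881 reads in the larger and smaller cTKO libraries, against 180 and 119 in the larger and smaller WT libraries. Ncr1, a defining natural killer marker, had 22 and 1 reads in the larger and smaller cTKO libraries. In the larger and smaller WT libraries Ncr1 had 2 and 4 reads. Of 9 tested myeloid and dendritic markers, 3 were higher and 0 lower, with sums of 917 to 2640 normalized reads in cTKO cells and 139 to 160 in WT cells over the 11 with recovered reads. Itgax, Itgam and Ly6c2 were higher, and Itgax held most of the sum in cTKO cells. Itgam had 434 and 138 reads in the larger and smaller cTKO libraries, against 34 and 30 in the larger and smaller WT libraries. Adgre1 had 4 and 0 reads and Cd14 1 and 0 reads in the larger and smaller cTKO libraries. Of 9 tested B cell markers, 0 were higher and 4 lower, with sums of 456 to 1288 in cTKO cells and 2334 to 2402 in WT cells. Of 5 tested erythroid and platelet markers, 1 was lower, the sums were 74.5 to 137 in cTKO cells and 189 to 269 in WT cells, and Ppbp had 0 reads. Their part in the levels of Fos, Fosl2, Jun and Junb was not tested.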

How the data were processed

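The labels' protocols describe paired-end sequencing of polyadenylated RNA. STAR and DESeq2, with the builds mm10 and GRCm38.p6, are named per the submitters' processing notes, and the sources used here give no versions, annotation or counting tool. Per the file headers, the authors deposited for each gene a mean normalized count, a signal over 4 libraries, and a log2 fold change with its standard error. The authors also deposited each gene's test score and p-value, raw and adjusted, from their own test. The headers do not name the numerator of the fold change, and if it were WT, each direction given here would be inverted.

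The reads of each library were recovered from the deposited values. The 4 lowest means in the table are single-read steps, 1 per library, and each gene's 4 whole numbers were searched for that met its mean, its fold change and its standard error. This succeeded for 16240 of 16244 genes searched, those with a mean below 2000 normalized reads, or below 10000 for listed genes, and for every subunit. The summed mean over all genes was 16257610 normalized reads. The split of libraries into genotypes came from the deposited fold changes, and apart from the Y-linked reads nothing links a library to a labelled animal.

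Calls are the authors' (adjusted p under 0.05). Normalized reads are reads over size factors, and per kb values divide them by the length of the longest GENCODE transcript tied to a RefSeq entry. The deposited table has no counts per sample, so limma 3.58.1 was run on log2 of normalized recovered reads plus 0.5, over 11059 tested genes, with Benjamini-Hochberg adjustment (R 4.3.3). Both the search and the limma step were checked on simulated data. Alternatives were a pseudocount of 2, a mean of at least 10, scaling to summed reads, re-centring, no filter on the mean, a block of larger and smaller libraries, and leaving out each library.

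From each list, the 3 genes with the smallest p in each direction were named, plus the 5 genes with a mean of at least 50 nearest to Fos. Further list genes are named as defining markers, as further calls, as a neighbour or for their ratio between the WT libraries. These were chosen after their values were seen. Marker lists for 6 cell types were also counted. Of 3 tested CD4 T cell markers 1 was higher, against 9.77% of all tested genes. The subunits and lists were chosen with earlier results of these data known. The labels give animals by number and sex, and p-values rest on at most 2 samples per genotype. The limma p-values draw on the spread of other genes too, so they do not measure a gene's own spread between samples alone. Intervals cover the fitted error of the authors' model, and the limit for a count of 0 covers counting error only.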

Additional observations from a re-analysis of the deposited data

How the results depend on the processing

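Fos, Fosl2 and Junb were called in each of 7 alternatives that kept all 4 libraries, and Jun in 1 of these 7. Over these alternatives the log2 fold change ran from −3.48 to −3.04 for Fos, from 1.74 upward for Fosl2, −1.47 to −1.27 for Jun and −1.15 to −1.04 for Junb. The alternative that called Jun was the limma fit with the replicate block of larger and smaller libraries (adjusted p = 0.00743). It gave 3 subunits lower and 1 higher. Its standard error for Jun draws partly on other genes, and the library difference in Jun ran in opposite directions in the genotypes. The library deviations of the genotypes correlated at r = 0.138 across 8195 genes, the labels give no shared replicate number, and what else libraries of a size share, beyond sex and size, was not tested. Re-centring moved fold changes by 0.10. Leaving out 1 library at a time gave between 0 and 1 subunits lower and 0 to 0 higher by limma; at an unadjusted p under 0.05, 1 to 3 were lower and 0 to 1 higher. These fits called 4 to 68 of 11059 genes lower and 222 to 588 higher, against 218 lower and 909 higher with all 4 libraries, and take a lone library to vary like the other genotype's. Batf reversed to 0.11 without the larger cTKO library; the cause was not tested. Jund was not called in any of the 11 alternatives. Fosb, Fosl1, Batf3 and Atf3 had too few reads for any comparison.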
